A study of Homo sapiens with 12 samples.

Results

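The JAK, STAT and IRF genes that carry interferon signals were followed in parental and venetoclax-resistant cells of the diffuse large B-cell lymphoma (DLBCL) lines SUDHL6 and SUDHL16. They are 9 genes chosen by name, the kinases JAK1 and TYK2, the transcription factors STAT2, STAT3, IRF1, IRF7, IRF8 and IRF9, and the inhibitor SOCS1. Each was found by its GENCODE symbol among the 60675 Ensembl identifiers counted in every library. RNA came from 4 groups of 3 libraries, 12 in total: SUDHL6 parental (CE-7, CE-8 and CE-9), SUDHL6 resistant (CE-10, CE-11 and CE-12), SUDHL16 parental (CE-25, CE-26 and CE-27) and SUDHL16 resistant (CE-28, CE-29 and CE-30). Both are established human lines that are sensitive to venetoclax, an inhibitor of the survival protein BCL2. Each resistant line was derived from its own parental line by months in rising venetoclax and was then kept in the drug, whereas parental cells had no such selection. Each resistant group stands for 1 derived line. Cells were moved to fresh medium for experiments, and whether venetoclax was in it when RNA was taken is not given in the sources used here. The SUDHL6 libraries were made with a NEBNext Ultra II kit and read on a HiSeq instrument, and the SUDHL16 libraries with an Illumina stranded kit with ribosomal RNA depletion and read on a NovaSeq, so kit, instrument and line cannot be told apart.

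Interferons bind paired receptor chains whose inner tails hold Janus kinases, chiefly JAK1 with TYK2 for the type I interferons, and the kinases phosphorylate STAT proteins, which then enter the nucleus. STAT2 and IRF9 are subunits of the complex ISGF3, which binds the interferon-stimulated response element (ISRE), while STAT3 serves mainly other cytokines and binds the gamma-activated site (GAS). IRF1 and IRF7 are transcription factors that interferon itself induces, IRF8 is a factor of germinal centre B cells and myeloid cells, and SOCS1 is a feedback inhibitor that blocks the kinases.

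The SUDHL6 libraries held 33992784 to 40885665 counts each and the SUDHL16 libraries 4131927 to 22068221. The lowest total belonged to CE-26, a parental SUDHL16 library, in which 55.4% of the counts were protein coding, where the 5 remaining SUDHL16 libraries had 84.3% to 90.2%, and 31.9% lay on identifiers without a match in GENCODE. CE-26 nevertheless had a count on 34938 genes, the highest number among the 12 libraries. The counts of calls and the changes of the 9 genes in SUDHL16 are therefore given with and without it, and levels, sums and shares include it unless stated. Values are CPM, counts scaled to library size with the TMM factors of edgeR, and changes are log2 fold changes of resistant against parental cells. A gene was called raised or lowered when its Benjamini-Hochberg adjusted p over all genes tested was under 0.05 in edgeR's two-sided quasi-likelihood test and its change was at least 1.5-fold. The biological coefficient of variation, the spread between libraries of a group, was 0.0516 in SUDHL6, 0.468 in SUDHL16 and 0.339 in SUDHL16 without CE-26, so that smaller changes were detectable in SUDHL6 than in SUDHL16. The methods speak in general terms of technical replicates and of independent experiments, and do not say which the RNA libraries of a group are. The p-values measure the spread between these libraries, which may be technical.

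Markers of B cells were abundant in both lines. The summed level of 8 B cell markers lay between 4547 and 4705 CPM in the SUDHL6 libraries, and MS4A1, which encodes CD20, was the most abundant. In SUDHL16 the sum was 3734, 2604 and 3743 CPM in the parental libraries and 4358, 4049 and 4468 CPM in the resistant libraries, lowest in CE-26. In SUDHL6, 0 of the 8 were called by edgeR, DESeq2 or voom, where edgeR called 8.96% of all genes tested. Of the 8, 7 had an unadjusted p under 0.05 in edgeR. The share of all genes under this unadjusted p was not counted, here or for the lists below. In SUDHL16, edgeR called 1 of the 8, the B cell kinase gene BLK, which was raised with and without CE-26. Of all genes tested, 3.20% were raised with and 6.73% without CE-26. In bulk RNA, fewer cells of a type and less RNA per cell cannot be told apart.

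Markers of other cells were low, with CE-26 apart from the rest. The 10 monocyte and macrophage markers summed to at most 1.24 CPM in 11 libraries and to 30.7 CPM in CE-26, with VCAN the most abundant. In SUDHL16, CD163 and ITGAM had counts in CE-26 alone (16 and 4), and LYZ in CE-26 and CE-27 (8 and 9). Other markers of this list went the other way, and CD14, S100A8 and S100A9 had 0 counts in CE-26. CD14 had 6 counts in CE-27 and 8 in CE-28, and S100A8 had 6 in CE-28. The 10 T and NK cell markers summed to 5.46 to 7.83 CPM in SUDHL6. In SUDHL16 they summed to 19.8, 58.9 and 23.2 CPM in the parental and 27.2, 34.7 and 32.5 CPM in the resistant libraries. TRAC was the most abundant of them, and 1 of 4 tested was called raised in SUDHL16, CD3E, where voom called 2. Without CE-26, 5 were tested, and the calls were CD3E and CD247, genes of T cell receptor chains, raised and KLRD1, an NK cell receptor gene, lowered. CD247 passed the filter there through the resistant and KLRD1 through the parental libraries alone, so both had to differ. The median log2 fold change of the tested markers was 0.93 with CE-26 and -0.40 without it. CD2 had counts there in CE-26 alone (5), and CD3D in CE-27 alone (8). The 10 fibroblast and epithelial markers summed to 20.2, 63.4 and 19.8 CPM in the parental and 0.871, 0.518 and 0.425 CPM in the resistant SUDHL16 libraries, and to at most 3.63 CPM in SUDHL6. DCN, the gene of the matrix proteoglycan decorin, gave 19.7 CPM of this in each of CE-25 and CE-27 and was called lowered with and without CE-26, where it passed the filter through the parental libraries alone and so had to differ. EPCAM, KRT8, KRT18 and KRT19 had counts in SUDHL16 in CE-26 alone, 4 to 6 each. In SUDHL6, KRT18, a keratin gene, was 1 of 3 tested markers of this list and was called raised, from 4, 7 and 20 counts in the parental to 33, 22 and 22 counts in the resistant libraries (log2 fold change 1.22, edgeR adjusted p = 0.0465), and DESeq2 did not call it. KRT18 passed the filter through the resistant libraries alone, with 1 of 3 parental libraries at its level, so the filter favoured a difference. Of all genes tested by edgeR, 4.31% were raised in SUDHL6. In SUDHL16 3.20% were raised and 2.10% lowered, or 6.73% and 3.32% without CE-26, and voom called 2648 of all genes against 833 for edgeR. The part of these marker levels in the changes of the JAK, STAT and IRF genes was not tested.

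The resistant lines differed in 4 of these 9 genes. In SUDHL6, 1 of the 9 was called, SOCS1, which was lowered, where 8.96% of 16662 genes tested were called (4.31% raised and 4.65% lowered). In SUDHL16, 4 of the 9 were called and all 4 were raised, STAT3, IRF1, IRF7 and SOCS1, where 5.30% of 15708 genes tested were called (3.20% raised and 2.10% lowered). SOCS1 passed the filter on low counts there through the resistant libraries alone, so it had to differ, and 3 of the 8 others were called. Without any filter SOCS1 was called as well (edgeR adjusted p = 8.02e-04). Without CE-26 the same 4 genes were called raised, where 10.0% of 16280 genes were called (6.73% raised and 3.32% lowered). By the interaction term of 1 edgeR fit of all 12 libraries, the change differed between the lines for the same 4 genes, where it differed for 7.16% of 19621 genes tested. Without CE-26 it differed again for these 4, where 14.0% of 20959 genes differed. The median log2 fold change of the 9 genes was 0.15 in SUDHL6, 0.64 in SUDHL16 and 0.93 in SUDHL16 without CE-26, and the median of all genes tested was -4.34e-05, -0.02 and 0.05 in the same order. All 9 passed the filter on low counts in both lines.

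**Figure D1:**
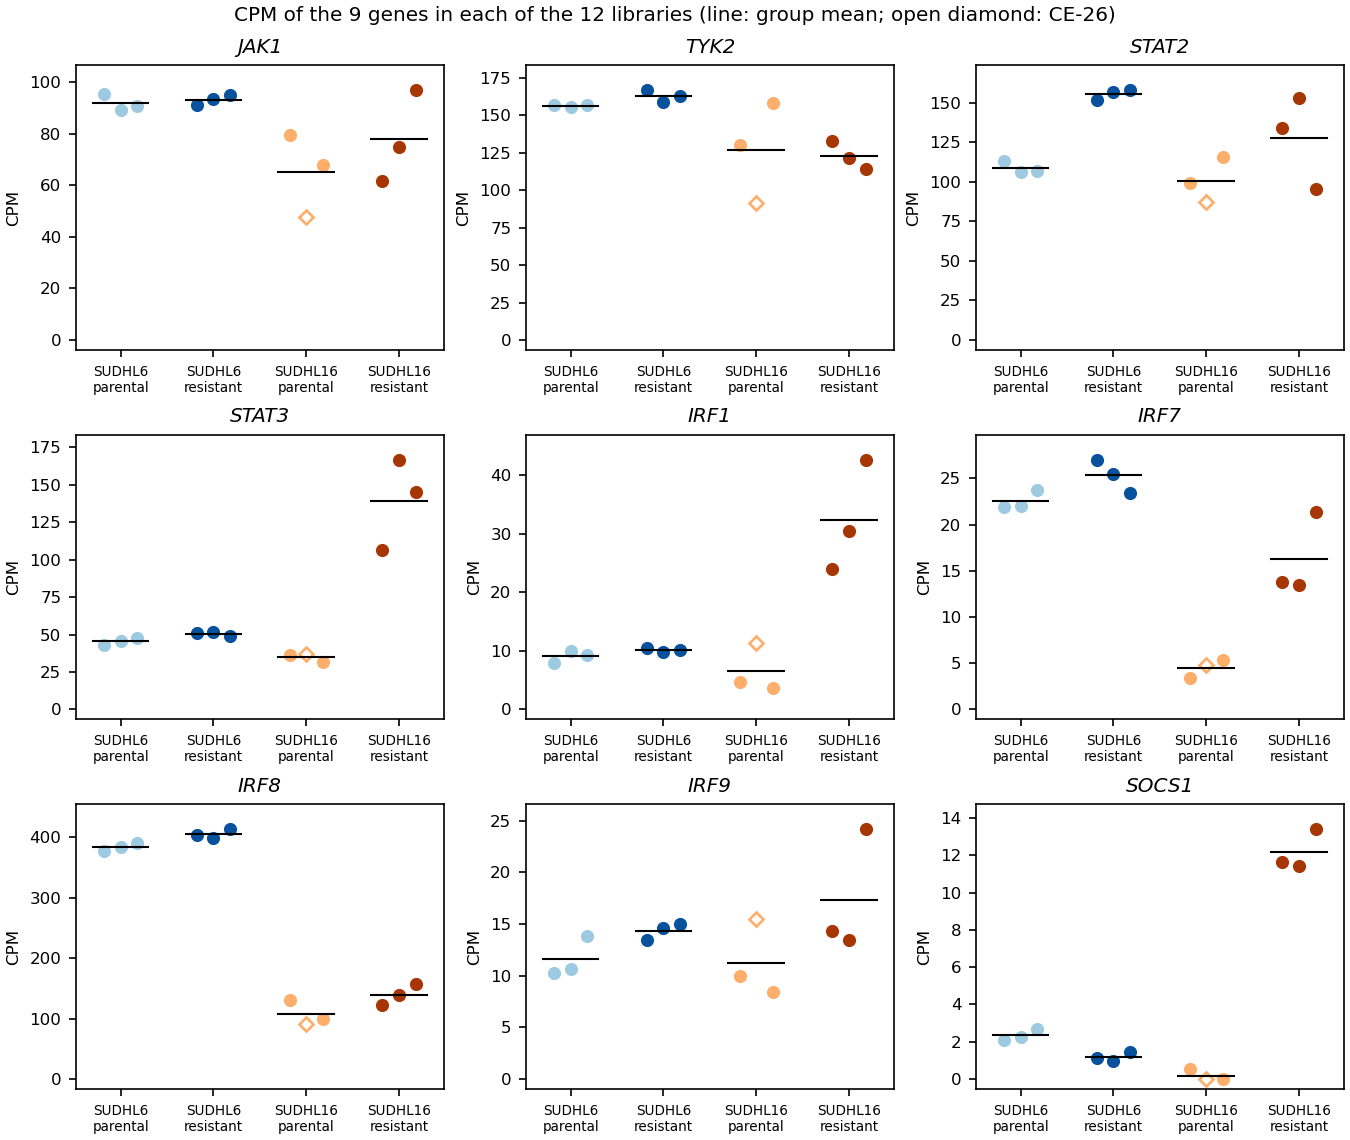
CPM of each of the 9 genes (vertical axis) in the 12 libraries, grouped by line and by parental or resistant cells (horizontal axis), with a point for each library, a line at the mean of the 3 libraries and an open diamond for CE-26. In STAT3, IRF1, IRF7 and SOCS1 the resistant SUDHL16 libraries lie above the parental SUDHL16 libraries.

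JAK1 and TYK2, the kinases that start the cascade, were not called in either line. JAK1 stood at 95.4, 89.3 and 90.9 CPM in the parental and 91.0, 93.3 and 94.9 CPM in the resistant SUDHL6 libraries. In SUDHL16 it stood at 79.6, 47.5 and 67.8 CPM in the parental and 61.8, 75.0 and 96.9 CPM in the resistant libraries. The groups overlapped in both lines, with CE-26 the lowest of all. For JAK1 the log2 fold change had a 95% interval from -0.05 to 0.09 in SUDHL6, and in SUDHL16 from -0.38 to 0.89, or -0.47 to 0.65 without CE-26. TYK2 stood at 155 to 157 CPM in parental and 159 to 167 CPM in resistant SUDHL6 cells, groups that lay side by side without overlap. In SUDHL16 it ranged from 91.3 to 158 CPM in parental and from 114 to 133 CPM in resistant cells, groups that overlapped. TYK2 had a log2 fold change of 0.06 in SUDHL6 (edgeR adjusted p = 0.0882) and -0.04 in SUDHL16 (interval -0.64 to 0.56), and -0.22 without CE-26 (interval -0.70 to 0.26). The SUDHL6 intervals of both kinases lay inside a 1.5-fold change, and those in SUDHL16 reached past it with and without CE-26.

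STAT2, the ISGF3 subunit that carries the transactivation domain, separated the SUDHL6 groups. It stood at 113, 106 and 107 CPM in the parental and 152, 157 and 158 CPM in the resistant SUDHL6 libraries. All 3 resistant libraries were above all 3 parental libraries, and the groups were each narrow. STAT2 had a log2 fold change of 0.52 (SE 0.0298, edgeR adjusted p = 4.16e-08), under 1.5-fold, so it was not called. In SUDHL16 it stood at 98.9, 87.5 and 115 CPM in the parental and 134, 153 and 95.7 CPM in the resistant libraries. These groups overlapped through CE-30, the lowest of the resistant libraries. STAT2 had a log2 fold change of 0.34 there (interval -0.25 to 0.93), and 0.26 without CE-26 (interval -0.32 to 0.84). The interval of the difference between the lines, -0.73 to 0.43, included 0.

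STAT3, which relays the signals of many cytokine receptors, separated the SUDHL16 groups widely. The gene (ENSG00000168610) spans chr17:42313324-42388540 on the minus strand of GRCh38. Its level was 36.3, 36.9 and 31.5 CPM in CE-25, CE-26 and CE-27 and 106, 167 and 145 CPM in CE-28, CE-29 and CE-30. Every resistant library was above every parental library, and CE-26 lay with the other parental libraries. STAT3 was raised at a log2 fold change of 2.0 (SE 0.252, edgeR adjusted p = 0.00368), and 2.05 without CE-26 (edgeR adjusted p = 0.00194). In SUDHL6, STAT3 stood at 43.3, 45.6 and 47.4 CPM in the parental and 50.8, 51.4 and 48.9 CPM in the resistant libraries. Those groups did not overlap, but the log2 fold change was 0.15 (SE 0.0397, edgeR adjusted p = 0.0105), under 1.5-fold and so not called. The change was larger in SUDHL16 by 1.89 on the log2 scale (SE 0.241, edgeR adjusted p = 6.11e-04). STAT3 was called in SUDHL16 whichever of the 6 libraries was left out, with edgeR adjusted p of 0.00194 to 0.0257.

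IRF1, a factor that interferon gamma induces early, rose in resistant SUDHL16 cells. The gene (ENSG00000125347) spans chr5:132440440-132508719 on the minus strand. It stood at 4.68, 11.4 and 3.66 CPM in the parental and 24.0, 30.4 and 42.6 CPM in the resistant libraries. CE-26 was the highest parental library, and each resistant library lay above it. The log2 fold change was 2.40 (SE 0.472, edgeR adjusted p = 0.0248) with CE-26 and 2.96 (edgeR adjusted p = 0.00137) without it. In SUDHL6, IRF1 stood at 7.96, 10.0 and 9.36 CPM in the parental and 10.6, 9.76 and 10.2 CPM in the resistant libraries. These groups overlapped, and the interval of the log2 fold change was -0.05 to 0.36. Between the lines the change of IRF1 differed by 2.34 (SE 0.464, edgeR adjusted p = 0.00944). The SUDHL16 call of IRF1 was lost without CE-25 (edgeR adjusted p = 0.0789), CE-27 (0.0629), CE-28 (0.0667), CE-29 (0.0990) or CE-30 (0.111).

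IRF7, the factor that amplifies type I interferon production, also rose in SUDHL16. The gene (ENSG00000185507) spans chr11:612553-615983 on the minus strand. It stood at 3.36, 4.82 and 5.34 CPM in the parental and 13.8, 13.5 and 21.4 CPM in the resistant libraries. The groups did not overlap. The log2 fold change was 1.86 (SE 0.388, edgeR adjusted p = 0.0310), and 1.91 without CE-26 (edgeR adjusted p = 0.0187). In SUDHL6, IRF7 stood at 21.9, 21.98 and 23.8 CPM in the parental and 27.02, 25.5 and 23.5 CPM in the resistant libraries, which overlapped, and it was not called. Between the lines the change of IRF7 differed by 1.73 (SE 0.319, edgeR adjusted p = 0.00646). The SUDHL16 call of IRF7 was lost without CE-25 (edgeR adjusted p = 0.108), CE-27 (0.0711), CE-28 (0.0906), CE-29 (0.0990) or CE-30 (0.133).

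**Figure D2:**
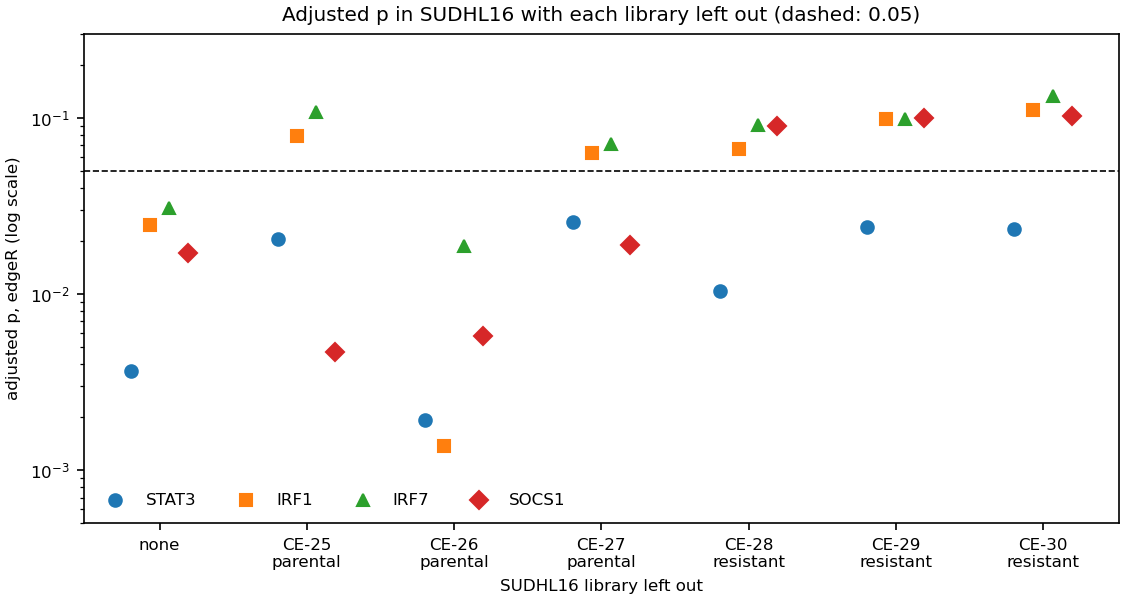
Adjusted p of the edgeR test (vertical axis, log scale) for STAT3, IRF1, IRF7 and SOCS1 in SUDHL16 with all 6 libraries and with each library left out in turn (horizontal axis), with a dashed line at 0.05. STAT3 stays below the line whichever library is left out, and IRF1 and IRF7 do so only without CE-26.

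IRF8 and IRF9 were not called in either line. IRF8, which B cells need in the germinal centre, stood at 377 to 391 CPM in parental and 398 to 413 CPM in resistant SUDHL6 cells. In SUDHL16 it stood at 90.9 to 131 CPM in parental and 122 to 156 CPM in resistant cells, groups that overlapped. Its log2 fold change was 0.08 in SUDHL6 (edgeR adjusted p = 0.00874), a small difference that the narrow groups made detectable, and 0.38 in SUDHL16 (interval -0.18 to 0.93), or 0.28 without CE-26 (interval -0.23 to 0.80). IRF9, the DNA-binding subunit of ISGF3, stood at 10.3, 10.6 and 13.8 CPM in the parental and 13.4, 14.6 and 15.0 CPM in the resistant SUDHL6 libraries. These groups overlapped slightly, with a log2 fold change of 0.30 (edgeR adjusted p = 0.0386). In SUDHL16, IRF9 stood at 9.92, 15.5 and 8.38 CPM in the parental and 14.3, 13.5 and 24.2 CPM in the resistant libraries. CE-26 lay above CE-28 and CE-29 there, and the log2 fold change was 0.64 with CE-26 (interval -0.23 to 1.51) and 0.93 without it (edgeR adjusted p = 0.154).

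SOCS1, the feedback inhibitor of the kinases, moved in opposite directions in the resistant lines. The gene (ENSG00000185338) spans chr16:11254417-11256204 on the minus strand. In SUDHL16 it had 10, 0 and 0 counts in CE-25, CE-26 and CE-27 and 174, 243 and 315 counts, or 11.7, 11.4 and 13.4 CPM, in CE-28, CE-29 and CE-30. It was near absence in the parental libraries, where a count of 0 allows up to 1.03 CPM in CE-26 and 0.186 CPM in CE-27 (a floor of 3 counts per library), and clearly present in the resistant libraries. Its share of the summed counts was 46.5-fold higher in resistant cells, from 732 counts against 10 (exact 95% interval 25.2 to 97.4), and 41.2-fold higher without CE-26 (22.3 to 86.2). Such intervals and floors cover counting error only. The log2 fold change fitted by edgeR was 5.60 (SE 1.01, adjusted p = 0.0171), and 5.39 without CE-26 (adjusted p = 0.00579), a size that depends on the prior count. The call was lost without CE-28 (edgeR adjusted p = 0.0900), CE-29 (0.100) or CE-30 (0.102), and the fitted value was 10.58 without CE-25, the parental library that held the 10 counts.

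In SUDHL6, SOCS1 stood at 2.11, 2.27 and 2.65 CPM in the parental and 1.12, 0.97 and 1.43 CPM in the resistant libraries. All resistant libraries were below all parental libraries, with 39 to 52 counts against 72 to 108. The log2 fold change was -1.01 (SE 0.194, edgeR adjusted p = 0.00126). DESeq2 and voom called it too, as did edgeR with any library left out. The call was lost in the edgeR fit of all 12 libraries, at nearly the same log2 fold change of -1.002 (adjusted p = 1), and in glmTreat, the edgeR test against a 1.5-fold change (adjusted p = 0.145). The fit of all 12 libraries gives each gene 1 spread for both lines, and called 140 of all genes in SUDHL6 against 1493. The loss was not particular to SOCS1, and STAT2 went there from an edgeR adjusted p of 4.16e-08 to 0.538 at a log2 fold change of 0.52. Between the lines the change of SOCS1 differed by 6.58 (SE 1.002, edgeR adjusted p = 0.00198), and by 5.86 to 12.20 when single libraries were left out, the largest without CE-25.

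**Figure D3:**
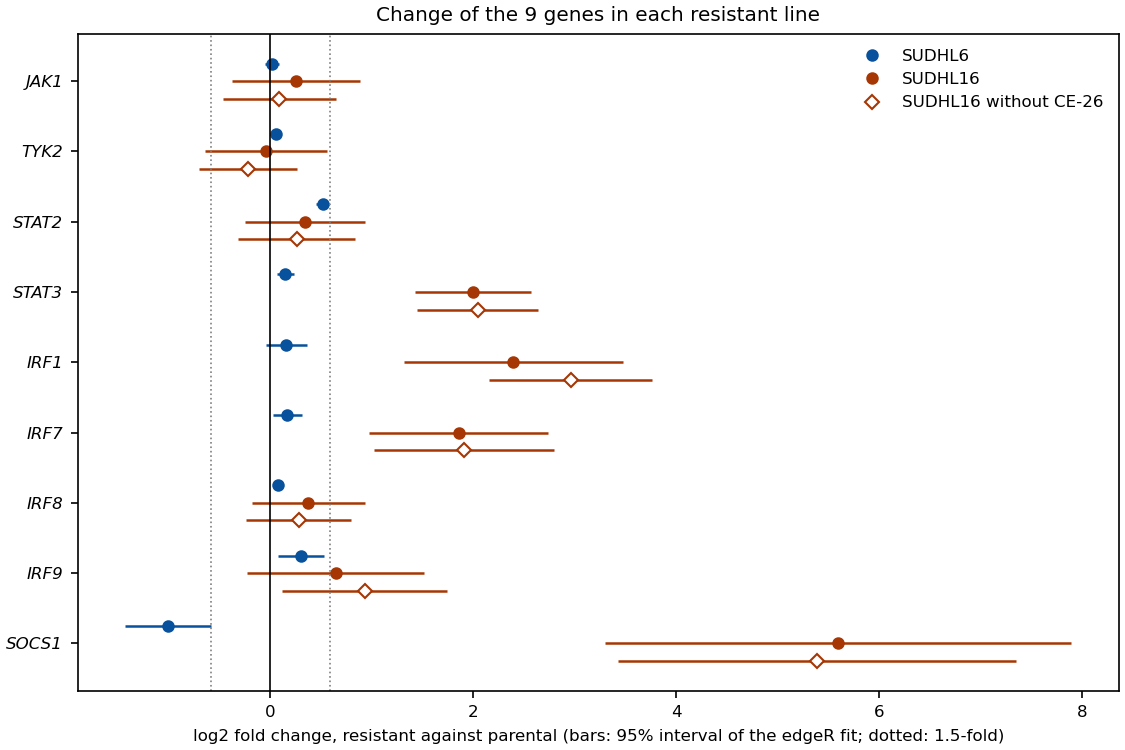
Log2 fold change of resistant against parental cells (horizontal axis) for the 9 genes (vertical axis) in SUDHL6, in SUDHL16 and in SUDHL16 without CE-26, with bars for the 95% interval of the edgeR fit and dotted lines at a 1.5-fold change. STAT3, IRF1, IRF7 and SOCS1 lie beyond 1.5-fold in SUDHL16 with and without CE-26, and SOCS1 lies on the other side of 0 in SUDHL6.

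SOCS1 overlaps RMI2, a genome stability gene on the opposite strand, and whether the counting used strand is not given in the sources used here, so reads from shared bases cannot be told apart. RMI2 had 1127, 1171 and 1238 counts in the parental and 798, 766 and 731 counts in the resistant SUDHL6 libraries (log2 fold change -0.73, edgeR adjusted p = 9.39e-07). In SUDHL16 it had 320, 73 and 225 counts in the parental and 694, 1055 and 1458 counts in the resistant libraries (log2 fold change 1.502, edgeR adjusted p = 0.0206). RMI2 was thus lowered in SUDHL6 and raised in SUDHL16, as SOCS1 was. IRF1 overlaps the antisense RNA IRF1-AS1, which had 19, 29 and 11 counts in the parental and 46, 83 and 117 counts in the resistant SUDHL16 libraries. Its log2 fold change was 0.15 with CE-26 (edgeR adjusted p = 0.955) and 2.204 without it (edgeR adjusted p = 0.0395). IRF9 shares its strand with an overlapping protein-coding gene that has no symbol, which was not called in either line. TYK2, STAT3 and IRF7 overlap no other gene in GENCODE 44.

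Promoters are shown for IRF1 and SOCS1, which rose together in SUDHL16. RefSeq windows (GRCh38.p14) were matched for 8 of the 9 genes, 11 windows in all, and the 250 bases before each start were searched on both strands. IRF7 is not in the table. The ISRE core GAAANNGAA was found in SOCS1 and the GAS core TTCNNNGAA in IRF1 and IRF9, with no overlap between them. Neither was found in the windows of JAK1, TYK2, STAT2, STAT3 and IRF8, which says only that these letters are not in these windows. Of 35116 windows of this length over 27305 genes, 6.88% hold the ISRE core and 6.57% the GAS core, so a match is a description and not a site. The IRF1 window is chr5:132490774-132491023 and the SOCS1 window chr16:11256205-11256454, both on the minus strand and written 5′ to 3′. Capitals mark the GAS core in IRF1, 124 to 116 bases before the start, and the ISRE core in SOCS1, 113 to 105 bases before the start.
IRF1: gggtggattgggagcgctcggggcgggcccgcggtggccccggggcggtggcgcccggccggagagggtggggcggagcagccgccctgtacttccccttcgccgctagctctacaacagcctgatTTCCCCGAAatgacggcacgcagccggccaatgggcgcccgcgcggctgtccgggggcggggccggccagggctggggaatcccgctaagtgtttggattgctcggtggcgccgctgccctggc
SOCS1: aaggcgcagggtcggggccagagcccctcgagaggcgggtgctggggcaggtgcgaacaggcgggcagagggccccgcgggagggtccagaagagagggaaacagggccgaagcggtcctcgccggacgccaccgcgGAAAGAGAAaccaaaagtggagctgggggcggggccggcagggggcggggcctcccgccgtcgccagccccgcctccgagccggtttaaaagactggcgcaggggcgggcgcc

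Calls among the genes around the raised members differed from member to member. Within 1 Mb of the start of STAT3, 50 other protein-coding genes were tested in SUDHL16, with 1 raised, 1 lowered and a median log2 fold change of -0.22. Without CE-26, 6 of the 50 were raised and 3 lowered. With CE-26 the raised neighbour was STAT5B, 99.9 kb away, and the lowered neighbour was ATP6V0A1, a subunit gene of the vacuolar proton pump, 70.3 kb away and named after its values were seen. Around IRF1 the median of 11 genes was 0.14, and 0 were called with or without CE-26. Around IRF7 the median of 36 genes was 0.07, with 3 raised, or 5 without CE-26. Around SOCS1 the median of 15 genes was 0.40, with 3 raised, and without CE-26 the median of 16 genes was 0.94, with 5 raised. RMI2, whose reads from bases shared with SOCS1 cannot be told apart, was among these raised genes with and without CE-26. Among all genes tested 3.20% were raised and 2.10% lowered, and 6.73% and 3.32% without CE-26. The raised share was thus higher than over all genes around SOCS1 and IRF7 with and without CE-26, and around STAT3 without it. Neighbours that passed the filter through the resistant libraries alone, and so had to differ, were not set apart in these counts. No conclusion on the surroundings of a member is drawn from them. Members not called in SUDHL16 also had raised neighbours there, 1 of 4 around JAK1 and 3 of 51 around STAT2. The counts were 2 of 50 around TYK2, 2 of 45 around IRF9 and 0 of 8 around IRF8. In SUDHL6, where STAT3 was not called, 10 of its 55 neighbours were raised, against 4.31% of all genes.

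Levels of different genes were compared as CPM per kb of the canonical transcript. IRF8 had the highest mean in all 4 groups, 144 CPM per kb in SUDHL6 parental and 40.2 CPM per kb in SUDHL16 parental cells. In both SUDHL6 groups the order below it was TYK2, STAT2, JAK1, IRF7, STAT3, IRF9, IRF1 and SOCS1, and no neighbours in that order overlapped. In SUDHL16 parental cells the order was IRF8, TYK2, STAT2, JAK1, STAT3, IRF9, IRF7, IRF1 and SOCS1. There the ranges of IRF8 and TYK2, of TYK2 and STAT2, of STAT3 and IRF9 and of IRF7 and IRF1 overlapped, and without CE-26 the order was the same and no neighbours in it overlapped. In SUDHL16 resistant cells STAT3 stood at 28.3 ± 6.22 CPM per kb (SD, n = 3), overlapping STAT2 at 28.99 ± 6.65 and TYK2 at 28.97 ± 2.24. SOCS1, the lowest in the other 3 groups, stood there at 9.82 ± 0.869 CPM per kb, overlapping IRF9 above it and IRF1 below it.

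The make-up of the IRF family differed between the lines. On the CPM per kb scale, IRF8 gave 44.4 ± 0.212% of the summed level of the 9 IRF genes in SUDHL6 parental and 49.9 ± 0.570% in resistant cells (SD, n = 3). In SUDHL16 it gave 37.8 ± 4.999% in parental and 29.4 ± 3.90% in resistant cells. IRF4, a factor of activated B cells and plasma cells, gave 21.3 ± 0.436% in SUDHL6 parental and 11.98 ± 0.0829% in resistant cells, and at most 1.15% in any SUDHL16 library. IRF5, a factor downstream of Toll-like receptors, gave 3.04 ± 1.02% in SUDHL16 parental and 17.7 ± 2.85% in resistant cells. IRF1 gave 1.17%, 3.38% and 0.934% in the parental libraries, with CE-26 the highest, and 5.06 ± 1.05% in the resistant libraries. IRF3, the factor that answers to sensors of viral nucleic acid, gave 36.8 ± 3.89% and 25.5 ± 7.86% in the same groups. IRF7 gave 2.24 ± 0.603% and 4.67 ± 0.656% there. Shares have a fixed sum, so a larger share of 1 gene lowers the others.

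**Figure D4:**
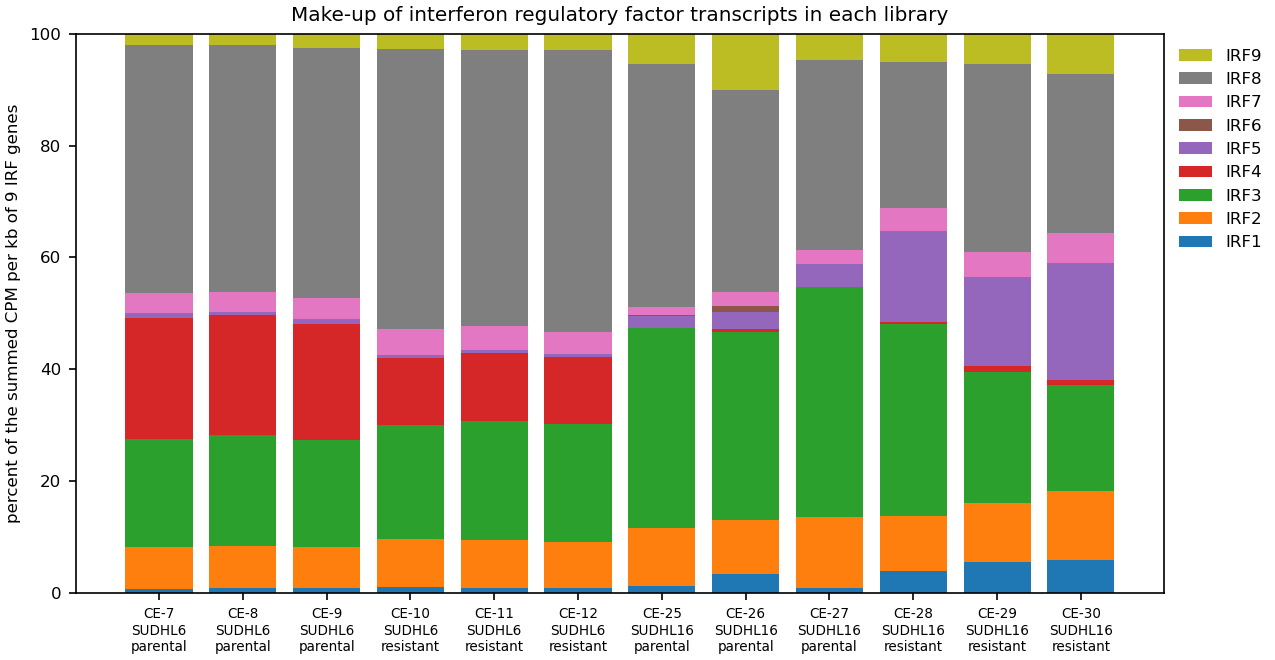
Percent of the summed CPM per kb of the 9 IRF genes that each gene gives (vertical axis) in each of the 12 libraries (horizontal axis). IRF4 takes a mean of 21.3% in parental and 11.98% in resistant SUDHL6 cells, and IRF5 3.04% in parental and 17.7% in resistant SUDHL16 cells.

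The genes most like each member were those with the smallest root mean square difference in log2 CPM over the 12 libraries, with the mean of each line removed, among 9966 protein-coding genes. For STAT3 they were TMEM63C, SESN2 and ASNS, at 0.14 to 0.16, where STAT3 itself varied by 0.71 about its line means. For IRF1 they were GPCPD1, NBPF1 and CHD2, at 0.15 to 0.20 against 0.91. For IRF7 they were ITPA, GADD45B and ELK3, at 0.09 to 0.14 against 0.65. SOCS1 had no gene as close, and DMXL2, ZNF395 and PIK3C2B were nearest at 0.40 to 0.43 against 1.57. For IRF9 they were MPC2, GPN3 and SP100, at 0.15 to 0.16 against 0.36. The nearest gene to JAK1 was ENOPH1, to TYK2 CCNL2, to STAT2 TTC7A and to IRF8 ERCC6.

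The interferon genes themselves were hardly measured. Of 21 interferon ligand genes, 16 had at most 3 counts in every library. None of the 21 passed the filter in the fit of either line alone, so none was tested there. Their summed level was at most 0.383 CPM in 11 libraries and 13.8 CPM in CE-26. IFNA17 ranked first through 7 counts in CE-26, against 1 count in the 11 others. IFNG, the type II interferon gene, had 8 to 12 counts in each SUDHL6 library and 0 in SUDHL16. IFNB1, a type I interferon gene, had 0, 2 and 0 counts in the parental and 1, 7 and 9 counts in the resistant SUDHL16 libraries. The 6 interferon receptor genes were well expressed, between 336 and 528 CPM in sum, highest in CE-26. By edgeR, DESeq2 and voom 0 of the 6 were called in either line. Among all genes edgeR called 8.96% in SUDHL6 and 5.30% in SUDHL16. Of the 6 receptor genes, 4 in SUDHL6 and 0 in SUDHL16 had an unadjusted p under 0.05 in edgeR. The smallest adjusted p among them was that of IFNGR2, a chain of the interferon gamma receptor, in SUDHL6 (log2 fold change -0.25, edgeR adjusted p = 2.15e-04), under 1.5-fold.

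Among the other JAK and STAT genes, JAK3, the kinase of the common gamma chain, was raised in both lines. It stood at 19.4, 19 and 21.3 CPM in the parental and 35.7, 34.4 and 31.8 CPM in the resistant SUDHL6 libraries (log2 fold change 0.77, edgeR adjusted p = 9.49e-07). In SUDHL16 it stood at 5.90, 19.6 and 6.77 CPM in the parental and 163, 196 and 116 CPM in the resistant libraries (log2 fold change 3.98, edgeR adjusted p = 0.00377, and 4.65 without CE-26). STAT5B, a STAT of interleukin and growth factor receptors, stood at 9.86, 10.3 and 11.9 CPM in the parental and 133, 140 and 130 CPM in the resistant SUDHL16 libraries. These groups were narrow and far apart (log2 fold change 3.65, edgeR adjusted p = 4.21e-04, and 3.64 without CE-26). Of the 6 tested genes of this list, 1 was raised in SUDHL6 and 2 in SUDHL16, or 3 without CE-26, where STAT5A was added. Of all genes, 4.31%, 3.20% and 6.73% were raised in the same order. STAT5A passed the filter there through the resistant libraries alone and had to differ. In the edgeR fit of all 12 libraries 0 of this list were called in SUDHL6 and 2 in SUDHL16, so the SUDHL6 call of JAK3 was lost. That fit called 140 of all genes in SUDHL6 and 2855 in SUDHL16.

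Of the other IRF genes, IRF4 was lowered in SUDHL6, from 363 to 368 CPM in parental to 192 to 195 CPM in resistant cells (log2 fold change -0.92, edgeR adjusted p = 7.91e-12), a call that was lost in the fit of all 12 libraries. IRF5 was raised in SUDHL16, from 6.89, 7.92 and 13.2 CPM in the parental to 83.4, 71.0 and 126 CPM in the resistant libraries (log2 fold change 3.30, edgeR adjusted p = 0.00191, and 3.23 without CE-26). Of the 4 tested genes of this list, edgeR called 1 in SUDHL16, where it called 5.30% of all genes. There voom called 2 and the edgeR fit of all 12 libraries 3, where they called 2648 and 2855 of all genes, against 833 for edgeR. In SUDHL16, IRF4 was not called with CE-26 (log2 fold change 3.26, edgeR adjusted p = 0.290). Without CE-26 it was called raised, but it passed the filter there through the resistant libraries alone, with 0 and 2 counts in CE-25 and CE-27, so that it had to differ, and its change is not given.

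Of 20 genes listed as inhibitors beside SOCS1, 15 were tested in SUDHL6 with 2 raised and 2 lowered, and 17 in SUDHL16 with 1 raised, or 2 without CE-26, where PTPN2 was added. The list takes in IRF2BP1 and IRF2BP2, genes of IRF2 corepressors rather than of JAK-STAT inhibitors. Among all genes 4.31% were raised and 4.65% lowered in SUDHL6, and 3.20% were raised in SUDHL16, or 6.73% without CE-26. The SUDHL6 calls of this list were lost in the edgeR fit of all 12 libraries. In SUDHL6, PTPN6, the phosphatase SHP-1, fell by 0.68 on the log2 scale, IRF2BP1, a corepressor of IRF2, fell by 0.68, and PTPN2, a phosphatase that acts on JAK1, rose by 0.61. The other raised gene there was ISG15, a ubiquitin-like modifier, at 1.05, and the raised gene in SUDHL16 was the corepressor gene IRF2BP2, at 3.45, both named after their values were seen. Of the 6 tested chains of cytokine receptors that use JAK1, 0 were called by edgeR or DESeq2 in the fit of either line alone. In each line 4 had an unadjusted p under 0.05 in edgeR, and voom called 3 in SUDHL16 and 0 in SUDHL6. The edgeR fit of all 12 libraries called 2 in SUDHL16. Over all genes in SUDHL16, voom called 2648 and the fit of all 12 libraries 2855, against 833 for edgeR on SUDHL16 alone. Without CE-26, edgeR called 1 raised, the interleukin-13 receptor gene IL13RA1, which passed the filter through the resistant libraries alone and had to differ. Over ligands, receptors, other JAKs, STATs and IRFs, inhibitors and these chains, 3 of 37 tested genes were raised and 3 lowered in SUDHL6, and their median log2 fold change was 0.02. In SUDHL16, 4 of 39 were raised, with a median of 0.39. Without CE-26 8 were raised, of which STAT5A, IRF4 and IL13RA1 had to differ, where 6.73% of all genes were raised.

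Known targets of the members were counted in lists written from general knowledge. Of 37 ISGF3 targets, 23 were tested in SUDHL6 (8 raised, 1 lowered), and the median log2 fold change was 0.43. The antiviral genes SAMD9L, IFIH1 and CMPK2 passed the filter there through the resistant libraries alone and had to differ, which leaves 5 raised. In the edgeR fit of all 12 libraries 2 of this list were called in SUDHL6, and 0 of the targets of IRF1 and interferon gamma and of STAT3. That fit called 140 of all genes in SUDHL6. In SUDHL16, 35 were tested, with 9 raised and a median of 1.15, and without CE-26 18 were raised. With CE-26, DESeq2 called 13, voom 24 and the edgeR fit of all 12 libraries 17. Over all genes in SUDHL16 these called 1775, 2648 and 2855 in the same order, against 833 for edgeR on SUDHL16 alone. Of the 9, the antiviral genes IFI44, IFITM1 and OAS3 passed the filter through the resistant libraries alone and had to differ, as had 9 of the 18. Among all genes 4.31% were raised in SUDHL6, 3.20% in SUDHL16 and 6.73% in SUDHL16 without CE-26. OAS2, an antiviral enzyme, stood at 6.20, 5.55 and 5.41 CPM in the parental and 24.3, 25.4 and 22.1 CPM in the resistant SUDHL6 libraries (log2 fold change 2.07, edgeR adjusted p = 1.35e-09). In SUDHL16 it stood at 2.26, 5.17 and 2.30 CPM in the parental and 28.3, 33.6 and 37.0 CPM in the resistant libraries (log2 fold change 3.47, edgeR adjusted p = 0.00238, and 3.86 without CE-26). OAS2 thus separated the groups of both lines. EIF2AK2, the kinase PKR, was raised by 1.43 in SUDHL6, and BST2, the antiviral protein tetherin, was the lowered target there, at -0.81.

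Of 27 targets of IRF1 and interferon gamma, 15 were tested in SUDHL6 (2 raised, 1 lowered), and the median log2 fold change was 0.12. In SUDHL16, 18 were tested, with 4 raised and a median of 1.08, and without CE-26 8 were raised, 3 of them through the resistant libraries alone. In SUDHL16, DESeq2 called 7 of this list, voom 10 and the edgeR fit of all 12 libraries 7. Over all genes these called 1775, 2648 and 2855 there, against 833 for edgeR on SUDHL16 alone. Among all genes 4.31% were raised and 4.65% lowered in SUDHL6, and 3.20% were raised in SUDHL16, or 6.73% without CE-26. The immunoproteasome genes PSMB8 and PSMB9 were raised in SUDHL6, at 0.74 and 1.08. ICAM1, an adhesion molecule, was lowered in SUDHL6, at -0.68, and raised in SUDHL16, at 1.98. The others raised in SUDHL16, named after their values were seen, were the class I gene HLA-B, the peptide transporter gene TAP1 and the tRNA synthetase gene WARS1, at 5.93, 2.12 and 2.53.

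Of 14 STAT3 targets, 12 were tested in SUDHL6 (1 raised, 3 lowered), and the median log2 fold change was -0.14. In SUDHL16, 13 were tested, with 5 raised and a median of 1.58, and without CE-26 8 were raised, 5 of them through the resistant libraries alone. In SUDHL16, DESeq2 called 5 of this list, voom 9 and the edgeR fit of all 12 libraries 8. Over all genes these called 1775, 2648 and 2855 there, against 833 for edgeR on SUDHL16 alone. The shares of all genes were 4.31% raised and 4.65% lowered in SUDHL6, 3.20% raised in SUDHL16 and 6.73% raised without CE-26. The survival gene MCL1 was raised in SUDHL6, at 0.82, and the kinase genes PIM1 and PIM2 were lowered there, at -0.89 and -0.76. PIM2 was raised in SUDHL16, at 1.65. The third lowered gene was the cyclin gene CCND2, and the others raised in SUDHL16 were the plasma cell factor gene PRDM1, the cytokine gene IL10, the hypoxia factor gene HIF1A and the AP-1 gene JUNB, all named after their values were seen. PRDM1 and IL10 had 0, 2 and 0 and 0, 3 and 0 counts in the parental libraries. Both passed the filter through the resistant libraries alone and had to differ. CCND2 passed in SUDHL6 through the parental libraries alone, but 2 of 3 resistant libraries reached the filter level, so the filter only favoured a difference. Many genes of these lists also answer to other factors, and activity of STAT3, IRF1 or ISGF3 was not measured.

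**Figure D5:**
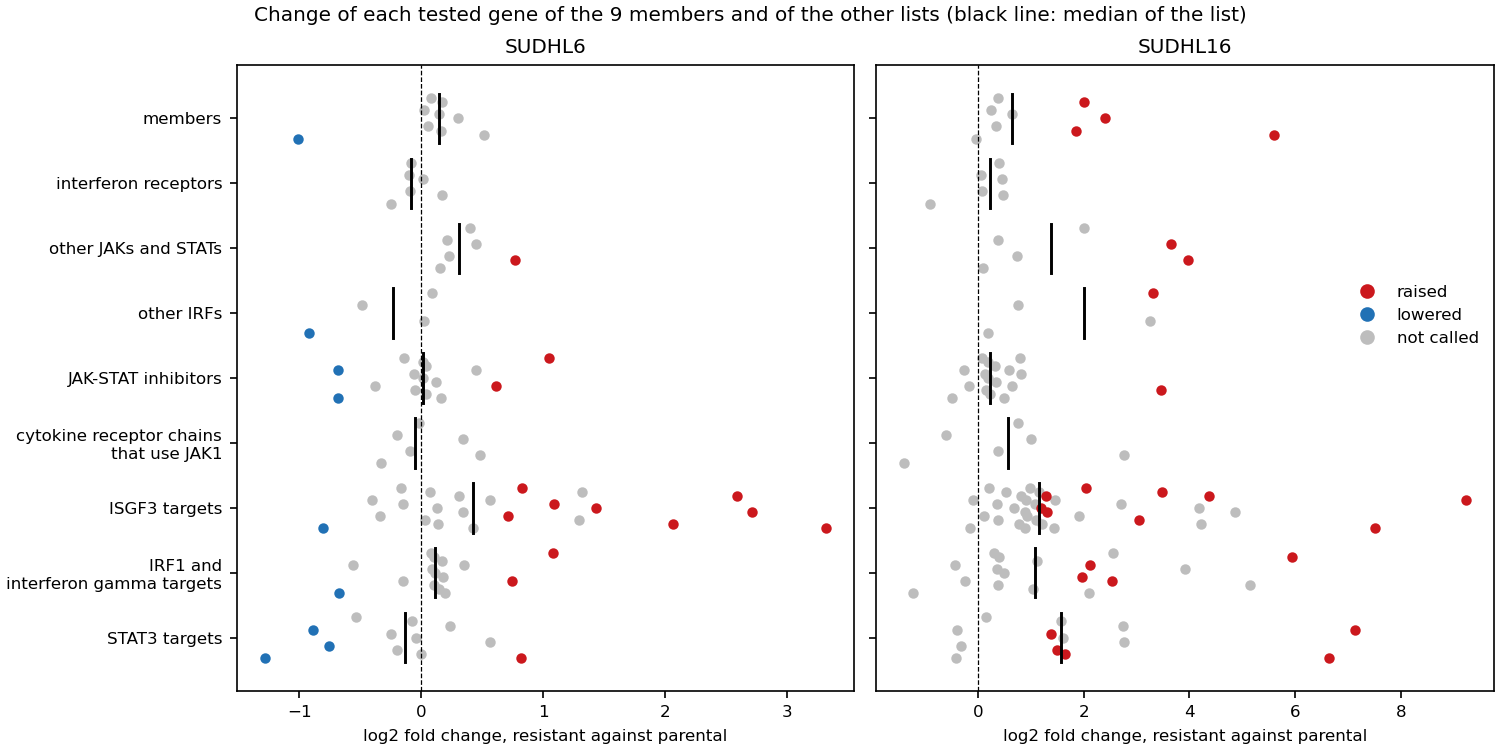
Log2 fold change of resistant against parental cells (horizontal axis) in SUDHL6 and SUDHL16 for each tested gene of the 9 members and of the other lists (vertical axis), coloured by call, with a black line at the median of each list. ISGF3 targets hold 8 raised and 1 lowered gene in SUDHL6 and 9 raised in SUDHL16. Of the raised, 3 in each line passed the filter through the resistant libraries alone. The 6 receptors hold no called gene, where 8.96% of all genes were called in SUDHL6 and 5.30% in SUDHL16.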

How the data were processed

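The authors trimmed reads with Trim Galore, aligned them to GRCh38 with HISAT2 and deposited a raw count per Ensembl gene for each library, and their processing notes also name StringTie and edgeR. The annotation and strand setting of the counting are not given in the sources used here. Identifiers were named with GENCODE 44, which held 56558 of 60675. Libraries were compared in pairs within a group, and none were identical. Each line was fitted alone with edgeR 4.0.16 in R 4.3.3 (filterByExpr, TMM scaling, quasi-likelihood test, Benjamini-Hochberg adjustment). Alternatives were DESeq2 1.42.0, voom with quality weights in limma 3.58.1, library totals without scaling, upper-quartile scaling, all genes without the filter, protein-coding genes only, a fit of all 12 libraries, glmTreat against 1.5-fold and each library left out. A gene is said to pass the filter through the resistant libraries alone when too few parental libraries reach the level the filter asks for, and the reverse for the parental libraries. A gene said to have had to differ does so in the number of libraries at this level, which fixes neither the size nor the call. Motifs were searched in RefSeq windows. The members and lists were chosen with earlier results of these data known. The text names the 9 members, per other list the 3 genes with the smallest adjusted p among those called, other genes of the receptor, JAK, STAT and IRF lists as needed, and per member the 3 most alike protein-coding genes among those averaging 5 CPM or more, with 0.5 CPM added before logarithms. Genes that overlap a member, marker genes and genes behind a count of 5 or fewer were named after their values were seen, and 1 gene of the lists is not reported here. Tables and plots were made with matplotlib 3.10.9, scipy 1.17.1, numpy 2.4.6 and pandas 2.3.3 in Python 3.11.15.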

Additional observations from a re-analysis of the deposited data

Results flagged for a closer look

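For 4 of the 9 genes the change in SUDHL16 differed from the change in SUDHL6 by a test of the difference itself, the interaction term in edgeR. The difference, SUDHL16 less SUDHL6 on the log2 scale, was 1.89 for STAT3, 2.34 for IRF1, 1.73 for IRF7 and 6.58 for SOCS1. Without CE-26 it was 1.86 for STAT3, 2.77 for IRF1, 1.71 for IRF7 and 6.35 for SOCS1, and for SOCS1 it was 12.20 without CE-25. SOCS1 is the gene among these 4 that was called in both lines, in opposite directions, and its SUDHL6 call was lost in the fit of all 12 libraries and in glmTreat. Kit and instrument differ between the lines and were shared by the parental and resistant libraries of each line.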

How the results depend on the processing

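In SUDHL6, SOCS1 lost its call in the fit of all 12 libraries, which called 0 members, 0 other pathway genes and 140 of all genes (against 1, 6 and 1493), and with glmTreat, which called 0, 3 and 588. In SUDHL16, where edgeR called 4 members, 4 other pathway genes and 833 of all genes, DESeq2 called 1775 of all genes, the fit of all 12 libraries 8 other pathway genes and 2855 of all genes, voom 11 and 2648, and glmTreat 517 of all genes. STAT3, IRF1, IRF7 and SOCS1 were called in SUDHL16 by each of these except glmTreat, which did not call IRF7. With each library left out in turn, SUDHL16 gave 1 to 4 members, 3 to 8 other pathway genes and 279 to 1636 genes in all. The cause was not tested. The difference between the lines was called for 4 members under each alternative run on it, each again with 1 spread per gene for both lines. Of 396 values of single members under the alternatives, 380 kept their side of the threshold and 16 lost a call, but most of the 396 had no call to lose. Of 14 alternatives in SUDHL16, the call was kept in 14 for STAT3, 9 for IRF1, 8 for IRF7 and 11 for SOCS1. In SUDHL6 the call of SOCS1 was kept in 12 of 14. In 8 of the 396, all of TYK2 or STAT2 and none called, the sign turned. Upper-quartile scaling moved the median log2 fold change of all genes in SUDHL16 to -0.11 and library totals without scaling moved it to 0.11. The counts of targets without CE-26, 18, 8 and 8 against 9, 4 and 5, were added after seeing the data. No paired analysis was possible because nothing ties libraries of different groups together. The depth and the coding share of CE-26 cannot be told apart.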
